A study of Saccharomyces cerevisiae with 9 samples.

Results

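The 34 nuclear genes examined here encode the NADH dehydrogenase *NDI1* and subunits of respiratory chain complexes II, III and IV and of the ATP synthase, complex V, of Saccharomyces cerevisiae. They were listed by name and complex, with earlier results of these data known, and all 34 were found by systematic name among the 7127 genes counted. *NDI1* stands alone, and the others are 4 genes of complex II, 9 of complex III, 7 of complex IV and 13 of complex V. Messenger RNA was sequenced in 9 libraries, 3 from separate cultures of each of early, mid and late log, which are successive subphases of logarithmic growth set by culture density. All cultures were the same MATa strain, called wild type, grown in YPD, a rich glucose medium, at 30 °C. The strain carried the alleles can1-100 and ade2-1, the auxotrophic markers his3-11 and trp1-1, and also ura3-1 together with alleles 3 and 112 of leu2, and its *RPA135* gene, for the second-largest subunit of RNA polymerase I, bore the insertion (HA)3-(His)7::TRP1, so every group shared the tag and no untagged strain was compared. The question was how the transcripts of each complex differed between the subphases.

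In budding yeast the inner mitochondrial membrane has no proton-pumping complex I. Ndi1 and succinate dehydrogenase (complex II) pass electrons to ubiquinone, the cytochrome bc1 complex (complex III) passes them on to cytochrome c, and cytochrome c oxidase (complex IV) gives them to oxygen, while ATP synthase makes ATP from the proton gradient that complexes III and IV build. High glucose represses many of these genes, and the Hap complex, which binds CCAAT and is active when Hap4 is made, is a known activator of them.

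The genes shared a promoter motif that was not used to choose them. In the 300 bases that lie between 400 and 101 bases before the start codon, CCAAT on either strand was found in 32 of the 34 genes (94.1%), with 54 copies in all, against 2636 of the 6001 windows of that length read from the R64 genome (43.9%). *CYT1* and *COX4* alone had none in this window. The consensus of the heme-responsive activator Hap1 (CGG, 3 bases of any kind, TA, 1 base of any kind and CGG, on either strand) was found in *QCR6* alone, with 2 copies, and in 13 of the 6001 windows (0.217%). The windows of the genes with the largest rise (*SDH4*, *QCR10*, *COX9* and *ATP15*) and the largest fall (*QCR6* and *ATP3*) of their complex in late over early log are printed 5′ to 3′ on the coding strand, with CCAAT, or ATTGG where the motif is on the other strand, in capitals. They are credited to the RefSeq R64 assembly.
SDH4, YDR178W, chrIV:817550-817849, plus strand: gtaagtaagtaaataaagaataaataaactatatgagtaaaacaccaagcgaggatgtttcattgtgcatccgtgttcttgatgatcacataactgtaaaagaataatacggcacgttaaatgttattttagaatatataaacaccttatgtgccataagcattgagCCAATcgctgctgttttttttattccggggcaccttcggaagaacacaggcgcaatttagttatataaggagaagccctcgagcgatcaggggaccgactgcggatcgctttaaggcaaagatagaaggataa
QCR10, YHR001W-A, chrVIII:107426-107725, plus strand: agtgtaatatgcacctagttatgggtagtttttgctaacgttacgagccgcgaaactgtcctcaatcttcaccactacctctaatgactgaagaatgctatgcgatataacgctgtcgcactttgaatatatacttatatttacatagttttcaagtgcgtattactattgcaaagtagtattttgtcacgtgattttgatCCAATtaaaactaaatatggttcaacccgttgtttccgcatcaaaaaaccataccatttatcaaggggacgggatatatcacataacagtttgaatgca
QCR6, YFR033C, chrVI:224870-225169, minus strand: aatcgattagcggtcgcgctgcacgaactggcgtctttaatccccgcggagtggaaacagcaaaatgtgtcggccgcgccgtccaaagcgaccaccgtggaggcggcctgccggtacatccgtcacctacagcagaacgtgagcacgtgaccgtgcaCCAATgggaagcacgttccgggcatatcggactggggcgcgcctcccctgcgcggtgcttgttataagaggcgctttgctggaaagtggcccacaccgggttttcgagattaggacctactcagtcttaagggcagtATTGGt
COX9, YDL067C, chrIV:334497-334796, minus strand: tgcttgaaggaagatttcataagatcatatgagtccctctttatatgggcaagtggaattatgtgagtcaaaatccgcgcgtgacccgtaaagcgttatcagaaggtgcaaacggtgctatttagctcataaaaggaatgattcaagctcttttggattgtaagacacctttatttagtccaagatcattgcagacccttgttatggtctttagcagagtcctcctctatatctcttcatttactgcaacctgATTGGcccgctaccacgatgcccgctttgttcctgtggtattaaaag
ATP15, YPL271W, chrXVI:29679-29978, plus strand: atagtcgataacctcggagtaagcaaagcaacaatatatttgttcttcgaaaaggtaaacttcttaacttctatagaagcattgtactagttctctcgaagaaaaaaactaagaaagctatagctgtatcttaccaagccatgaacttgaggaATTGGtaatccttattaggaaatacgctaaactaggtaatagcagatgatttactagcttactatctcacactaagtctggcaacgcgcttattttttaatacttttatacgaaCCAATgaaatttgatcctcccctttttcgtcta
ATP3, YBR039W, chrII:315175-315474, plus strand: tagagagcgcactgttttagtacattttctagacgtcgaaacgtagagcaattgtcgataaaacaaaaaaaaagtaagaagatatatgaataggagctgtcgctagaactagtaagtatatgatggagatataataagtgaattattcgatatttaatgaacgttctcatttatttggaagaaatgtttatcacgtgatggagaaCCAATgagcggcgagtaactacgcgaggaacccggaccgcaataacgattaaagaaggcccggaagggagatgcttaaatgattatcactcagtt
In these windows the motif began 233 bases before the start codon of *SDH4*, 199 before that of *QCR10*, 147 before that of *COX9* and 195 before that of *ATP3*. *QCR6* had copies at 243 and 106 bases and *ATP15* at 247 and 133 bases before the start codon, and the *QCR6* window overlapped the neighbouring gene *PHO4*. CCAAT was thus present before genes that rose and genes that fell, and a match of these letters is a description and not a measured binding site. The median log2 fold change of late over early log was 0.87 in the 32 genes with the motif and 1.04 in the 2 without it.

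Each library had 22830165 to 34358259 reads on genes, and no library had fewer than 146 reads on any of the 34 genes, the lowest being *ATP14* in mid log replicate 3. Levels are given as CPM, the count of a gene as a share of all counts on genes, scaled by TMM over the 9 libraries. The scaling factors ran between 1.36 and 1.47 in early log, 0.700 and 1.01 in mid log and 0.878 and 0.902 in late log, so a gene's share of all reads and its scaled level can differ in direction. Mid log replicate 1 and early log replicate 3 stood apart from the other libraries of their groups, at a root mean square log2 difference of 1.20 to 1.23 and of 0.726 to 0.765, where the other 2 replicates differed by 0.332 in mid log and 0.249 in early log. By the study's list of index primers, run 1 held early log replicates 1 and 2, run 2 held the 3 libraries of mid log, and run 3 held the 3 of late log and early log replicate 3. What belongs to mid log and what belongs to run 2 therefore cannot be told apart. The summed level of 5 MATa marker genes was 2111 to 2369 CPM in late log, against 712 to 791 CPM in early log, while that of 4 MATalpha marker genes stayed between 19.7 and 31.3 CPM in the 9 libraries. In late over early log 4 of the 5 MATa genes rose and 1 fell, with log2 fold changes between −1.06 and 3.07. Of the 4 MATalpha genes 1 rose and 1 fell. The summed level of 7 stress and stationary phase genes was 399 to 443 CPM in late log, against 107 to 216 CPM in early log, and the part of these differences in the results below was not tested.

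Most of the respiratory chain genes were higher in late log than in early log, by 1.55-fold to 4.47-fold. Of the 34 genes, 25 rose and 2 fell (*QCR6* and *ATP3*) at a Benjamini-Hochberg adjusted p below 0.05 in the quasi-likelihood test of edgeR, whereas of the 5954 genes tested 33.0% rose and 39.2% fell. The median log2 fold change was 0.87 in the 34 genes and −0.08 in all genes tested. These are whole cultures, so a change in the mix of cells and a change in RNA per cell cannot be told apart. All 4 genes of complex II and all 7 of complex IV rose, although *COX7*, *COX8* and *COX12* of complex IV did not when the trend with gene length was removed. In complex III 5 of 9 rose and 1 fell, and in complex V 9 of 13 rose and 1 fell. The 7 that did not pass the test were *NDI1*, *RIP1*, *QCR7*, *QCR8*, *ATP4*, *ATP7* and *ATP14*, with log2 fold changes between −0.50 and 0.33. Every late log library was above every early log library for 26 of the 34 genes and below for 3, against 37.9% and 39.2% of all genes tested.

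**Figure D1:**
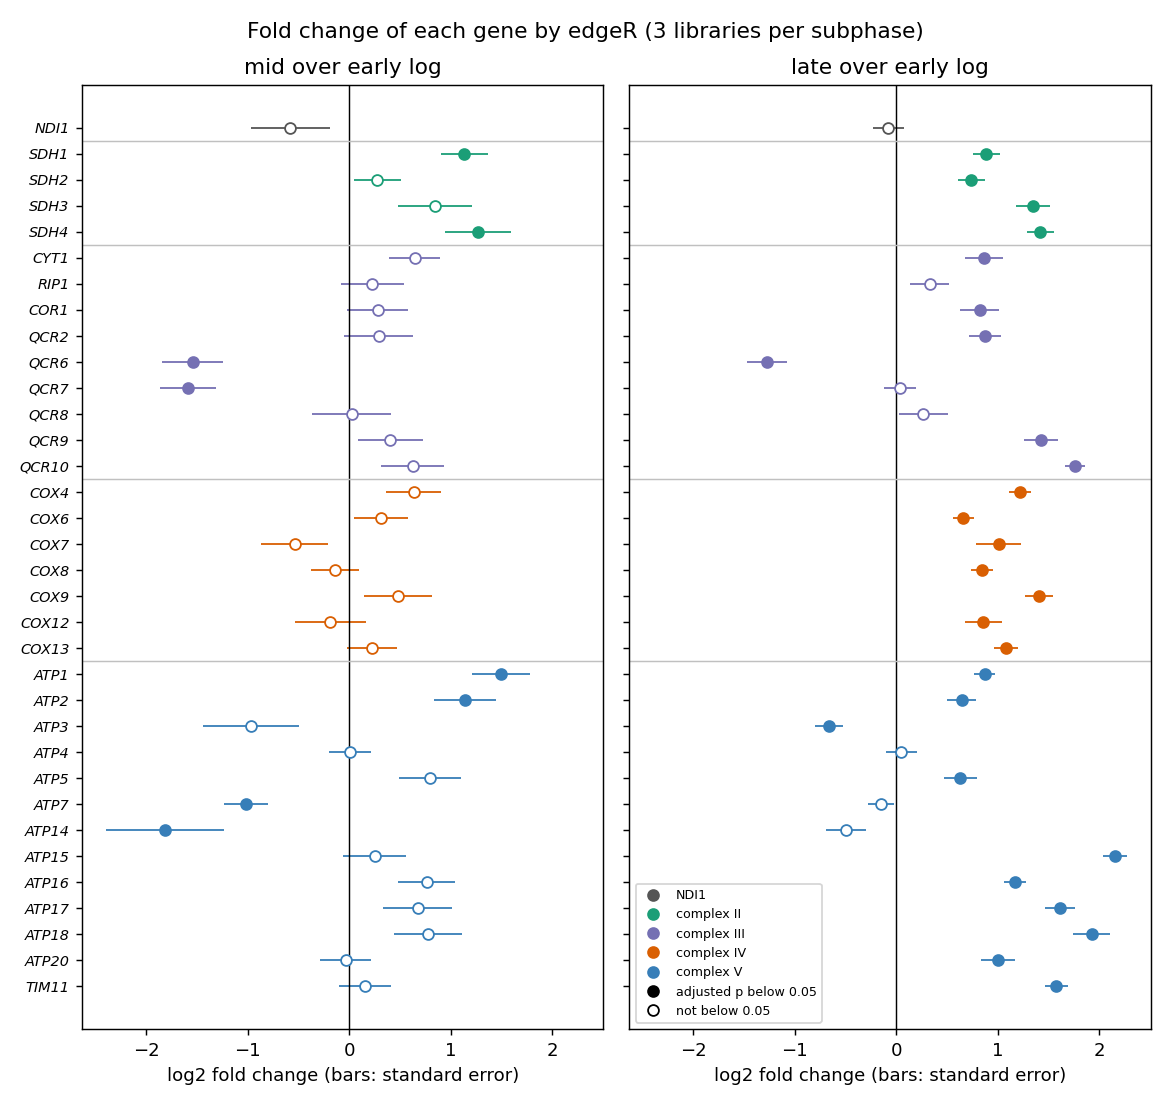
Log2 fold change of each of the 34 genes (horizontal axis, bars are standard errors) for mid over early log, left, and late over early log, right, with genes down the page coloured by complex and filled points marking an adjusted p below 0.05. On the right 25 filled points lie above 0 and 2 below, and on the left 4 lie above and 4 below. Under scaling by library totals 12 would lie above and 7 below on the right, and 1 above and 13 below on the left. Of all genes tested, that scaling gave 839 of 5954 higher and 3291 lower in late over early log. In mid over early log it gave 216 of 5951 higher and 2127 lower.

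The size of this rise depended on what the levels were set against. Under scaling by library totals the median of all genes was −0.68 and that of the 34 genes was 0.27, so the distance between the medians was 0.95, as it was with TMM. All 25 genes kept a positive fold change with that scaling, but 12 of them rose by the test, and 7 of the 34 genes fell (*NDI1*, *QCR6*, *QCR7*, *ATP3*, *ATP4*, *ATP7* and *ATP14*). As a share of all reads on genes, the 34 genes together took 0.657% ± 0.024 in early log, 0.572% ± 0.022 in mid log and 0.768% ± 0.028 in late log (SD, n = 3 each). The 12 were 2 genes of complex II, 2 of complex III, 3 of complex IV and 5 of complex V. Of all 5954 genes tested, 839 rose and 3291 fell under library totals. A fit of all 9 libraries called 26 of the 34 genes. When the sequencing run was added to that fit as a term, early log replicate 3 alone carried the contrast within a run, with its spread assumed to be that of the other libraries. With this term 16 of the 25 genes rose, where 724 of all 6014 genes tested rose and 728 fell. Neither *QCR6* nor *ATP3* passed, with log2 fold changes of −0.93 for *QCR6* (adjusted p = 0.0761 by edgeR) and −0.60 for *ATP3* (adjusted p = 0.455 by edgeR).

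Fewer of the genes differed between mid and early log. At the same threshold 4 genes rose (*SDH1*, *SDH4*, *ATP1* and *ATP2*) and 4 fell (*QCR6*, *QCR7*, *ATP7* and *ATP14*) in mid log relative to early log, whereas 20.7% of the 5951 genes tested rose and 24.2% fell, so the shares of the 34 genes were below those of all genes. The median log2 fold change was 0.28 in the 34 genes and −0.12 in all genes. Every mid log library was above every early log library for 6 of the 34 genes and below for 5, against 27.2% and 34.3% of all genes tested. Under scaling by library totals the median of all genes was −0.89, that of the 34 genes was −0.55, and 1 gene rose (*ATP1*) and 13 fell. Of the 5951 genes tested, 216 rose and 2127 fell with that scaling. With the trend in GC content removed 12 of the 34 genes rose and 3 fell, and of all 5951 genes 1764 rose and 1025 fell.

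The mid log values rested on which libraries were used. Mid log replicate 1 lay outside the range of the other 2 mid log replicates for all 34 genes, as it did for 94.7% of the genes tested, and was nearer on the log2 scale to the early log mean than to the mean of those 2 for 27 of the 34 genes (79.4%) and for 59.8% of the genes tested. Without it 19 of the 34 genes rose and 6 fell in mid log relative to early log. Of the 6007 genes tested without it, 2019 rose and 2573 fell. Without early log replicate 1 or 2, or mid log replicate 2 or 3, 0 of the 34 genes and 0 of all genes passed edgeR's test in this comparison, while 8 of the 34 had an unadjusted p below 0.05 in each case. In those fits 2441 to 2476 of all genes tested had such a p. Without early log replicate 3, 6 of the 34 genes passed, where 996 of 5991 genes tested rose and 1212 fell.

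No gene of the 34 passed the test between late and mid log, where 0.307% of the 5865 genes tested rose and 0.153% fell. By edgeR 0 of 34 passed after adjustment and 15 had an unadjusted p below 0.05. DESeq2 called 8, all higher in late log (*QCR7*, *COX7*, *COX8*, *ATP7*, *ATP15*, *ATP18*, *ATP20* and *TIM11*). Of all 5865 genes tested, 1160 had an unadjusted p below 0.05 by edgeR. DESeq2 called 176 of the 5865 higher and 191 lower. The median log2 fold change was 0.50 in the 34 genes and −0.11 in all genes. Without mid log replicate 1 edgeR called 24 of the 34 genes. Of these, 20 rose and 4 (*SDH1*, *ATP1*, *ATP2* and *ATP5*) fell in late log relative to mid log. Of the 5913 genes tested without it, 1707 rose and 1611 fell.

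**Figure D2:**
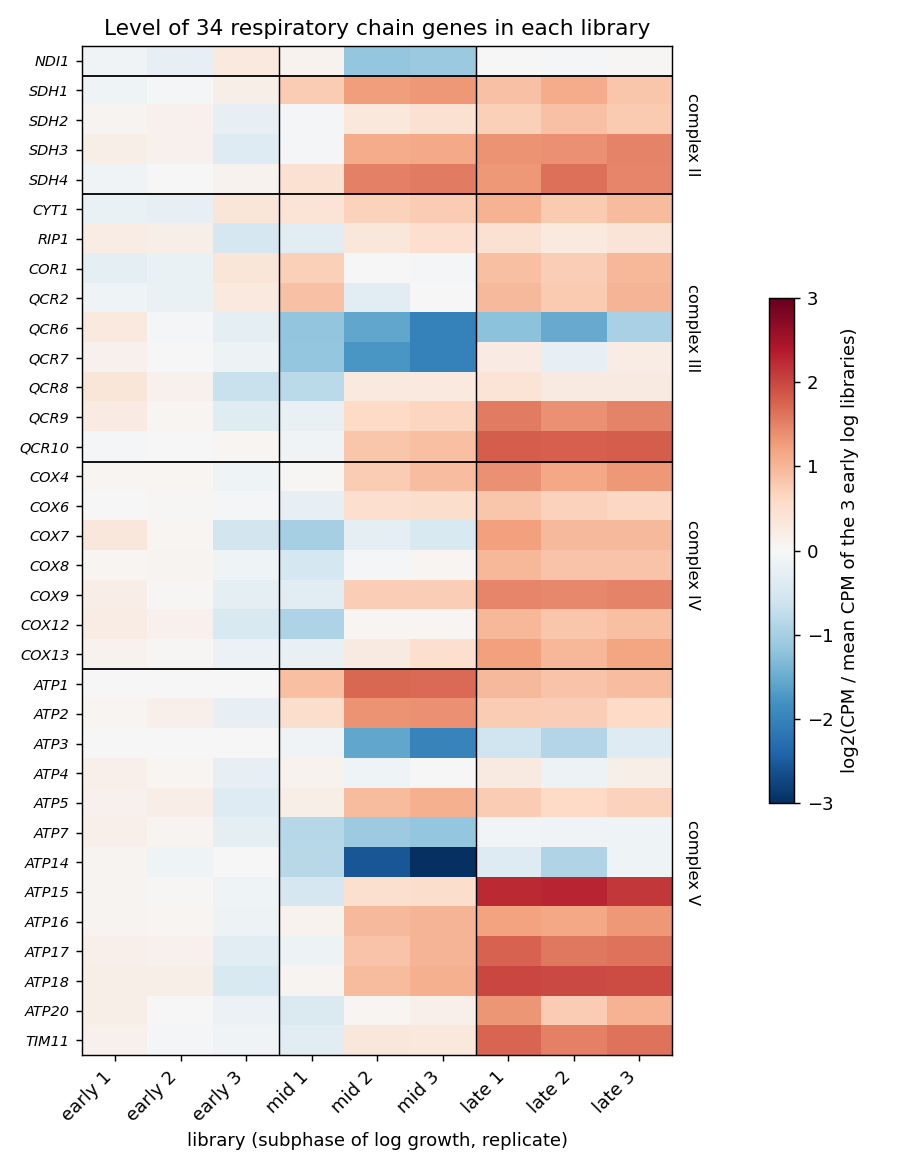
Log2 of the CPM of each gene (rows, grouped by complex) in each of the 9 libraries (columns) over the mean CPM of the 3 early log libraries. In late log 25 genes passed as higher and QCR6 and ATP3 as lower relative to early log, and mid log replicate 1 is nearer to the early log mean than to the mean of mid log replicates 2 and 3 for 27 of the 34 genes.

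The results are given next in the order of electron flow. *NDI1* (YML120C) encodes the dehydrogenase that oxidizes NADH on the matrix side. *NDI1* had 68.3, 62.6 and 90.3 CPM in early log, 79.7, 33.0 and 34.3 CPM in mid log and 72.6, 70.4 and 75.0 CPM in late log. It had the lowest level per kilobase of coding sequence of the 34 genes in every subphase, at 47.8 CPM per kilobase in early log, 31.8 in mid log and 47.1 in late log. The late and early log ranges overlapped, and mid log replicates 2 and 3 were the lowest of the 9 libraries. The log2 fold change was −0.58 ± 0.39 (SE, adjusted p = 0.246) for mid over early log and −0.08 ± 0.16 (SE, adjusted p = 0.676) for late over early log by edgeR, and neither passed. With the trend in gene length removed *NDI1* rose in late log, at 0.49 (adjusted p = 0.0336 by edgeR). In late over mid log the value was 0.46 ± 0.33 (SE, adjusted p = 0.477). Without mid log replicate 1 *NDI1* was among the genes that fell in mid log. Of 5 other genes for dehydrogenases that feed ubiquinone or cytochrome c, 1 rose (*NDE2*) and 1 fell (*NDE1*) in late log relative to early log. Both encode external NADH dehydrogenases, and *NDE1* was the abundant one, with a mean of 379 CPM in late log, against 774 CPM in early log.

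All 4 complex II genes were higher in late log than in early log, with no overlap between the libraries, although under scaling by library totals only *SDH3* and *SDH4* passed, and *SDH1* had 0.29 (adjusted p = 0.125 by edgeR) and *SDH2* 0.15 (adjusted p = 0.302 by edgeR) on the log2 scale. *SDH1* (YKL148C) encodes the flavoprotein that oxidizes succinate and *SDH2* (YLL041C) the iron-sulfur subunit. *SDH1* had 93.7, 97.1 and 114 CPM in early log, 171, 242 and 251 CPM in mid log and 186, 218 and 181 CPM in late log. *SDH2* had 86.1, 89.3 and 68.4 CPM in early log, 79.4, 102 and 112 CPM in mid log and 134, 149.8 and 139 CPM in late log. *SDH1* was already above every early log library in the 3 mid log libraries, whereas the mid and early log ranges of *SDH2* overlapped. In late over early log the log2 fold change was 0.89 ± 0.14 (SE, adjusted p = 0.000885) for *SDH1* by edgeR. It was 0.74 ± 0.13 (SE, adjusted p = 0.00189) for *SDH2* by the same test. In mid over early log *SDH1* rose by 1.14 ± 0.24 (SE, adjusted p = 0.0144) on the log2 scale, while *SDH2* had 0.28 ± 0.23 (SE, adjusted p = 0.343). *SDH2* had the smallest p of complex II in late over mid log, at 0.39 ± 0.22 (SE, adjusted p = 0.356), and did not pass.

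*SDH3* (YKL141W) and *SDH4* (YDR178W) encode the membrane anchor that hands electrons to ubiquinone. *SDH3* had 154, 149 and 104 CPM in early log, 129.5, 295 and 301 CPM in mid log and 345, 354 and 379 CPM in late log. *SDH4* had 48.9, 51.6 and 56.6 CPM in early log, 71.4, 151 and 154 CPM in mid log and 129, 164 and 144 CPM in late log. Mid log replicate 1 of *SDH3* lay within the early log range and the other 2 mid log replicates between that range and the late log range, and *SDH4* in mid log replicate 1 lay between the early log and the other mid log values. The late over early log change was 1.35 ± 0.16 (SE, adjusted p = 0.000316) for *SDH3* and 1.42 ± 0.13 (SE, adjusted p = 0.000118) for *SDH4* on the log2 scale by edgeR. Between mid and early log *SDH4* rose by 1.27 ± 0.33 (SE, adjusted p = 0.0215) and *SDH3* had 0.85 ± 0.36 (SE, adjusted p = 0.0932), which did not pass. With the sequencing run as a term *SDH2* and *SDH3* still rose in late log, and *SDH1* (adjusted p = 0.0651 by edgeR) and *SDH4* (adjusted p = 0.0557 by edgeR) did not pass.

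The genes that assemble complex II rose with it. All 4 listed assembly factors (*SDH5*, *SDH6*, *SDH7* and *SDH8*) rose in late log relative to early log, with a median log2 fold change of 2.10, and *SDH8* also rose in mid log. Of the paralogs *SDH9*, *SHH3* and *SHH4*, 2 rose in late log relative to early log, at means below 10 CPM (*SDH9* at 3.21 CPM and *SHH4* at 8.61 CPM in late log), and none of the 3 passed under library totals or with the sequencing run as a term. *SDH1* and *SDH9* matched each other at up to 78.0% identity, and no gene of the 34 had another stretch of at least 50 bases at 97% identity in the R64 genome.

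Complex III was mixed. *CYT1* (YOR065W) encodes cytochrome c1 and *RIP1* (YEL024W) the Rieske iron-sulfur protein, the catalytic subunits that are encoded in the nucleus. *CYT1* had 79.2, 76.2 and 117 CPM in early log, 122, 146 and 155 CPM in mid log and 186, 156 and 174 CPM in late log. *RIP1* had 193, 185 and 116 CPM in early log, 131, 207 and 234 CPM in mid log and 227, 202 and 213 CPM in late log. The late log libraries of *CYT1* were all above the early log ones, and those of *RIP1* also were, but early log replicate 3 of *RIP1* was far below the other 2 early log replicates and the gene did not pass. *CYT1* was among the genes that rose in late log and not among those that rose in mid log. Its late log rise did not pass under scaling by library totals (0.26 on the log2 scale, adjusted p = 0.296 by edgeR). In mid log it did rise with DESeq2's size factors, by DESeq2's test, in a fit of all 9 libraries and with the trend in gene length removed.

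*COR1* (YBL045C) and *QCR2* (YPR191W) encode the core proteins on the matrix side. *COR1* had 148, 156 and 230.2 CPM in early log, 292, 178 and 173 CPM in mid log and 331, 295 and 355 CPM in late log. *QCR2* had 119, 114 and 159.7 CPM in early log, 239, 105 and 133 CPM in mid log and 258, 226 and 263 CPM in late log. Both genes differed from most others in mid log, since mid log replicate 1 was the highest and not the lowest of the 3 mid log libraries. In late log both were above every early log library and both rose by the test. Under scaling by library totals *COR1* (adjusted p = 0.383 by edgeR) and *QCR2* (adjusted p = 0.208 by edgeR) did not pass. Neither rose by the test with the sequencing run as a term, where early log replicate 3, the highest early log library for both, carried the contrast.

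The small subunits split. *QCR6* (YFR033C) encodes the acidic hinge protein that binds near cytochrome c1. *QCR6* had 101, 79.2 and 67.7 CPM in early log, 36.2, 28.0 and 20.4 CPM in mid log and 35.0, 29.2 and 42.4 CPM in late log. No mid or late log value of *QCR6* reached the early log range, and the mid and late log ranges overlapped. *QCR6* fell in both comparisons, with a log2 fold change of −1.54 ± 0.30 (SE, adjusted p = 0.0135) in mid log and −1.27 ± 0.19 (SE, adjusted p = 0.000895) in late log relative to early log by edgeR. In linear terms it was 2.42-fold lower in late log. Stretches of *QCR6* matched other places in the genome, the longest over 109 bases, but none of at least 50 bases reached 97% identity.

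*QCR7* (YDR529C) encodes a subunit on the matrix side that is needed for assembly, and *QCR8* (YJL166W) a membrane subunit next to the ubiquinol site. *QCR7* had 189.7, 175 and 157 CPM in early log, 77.3, 51.7 and 42.8 CPM in mid log and 207, 146 and 204 CPM in late log. *QCR8* had 123, 104 and 60.0 CPM in early log, 55.0, 118 and 117 CPM in mid log and 128, 116 and 115 CPM in late log. *QCR7* dipped in mid log, with all 3 mid log libraries below all 6 others, while its late and early log ranges overlapped. It fell by 1.59 on the log2 scale in mid over early log (SE 0.27, adjusted p = 0.0135 by edgeR), and its late over early log value was 0.04 ± 0.16 (SE, adjusted p = 0.835). Between late and mid log it had the smallest p of complex III, at 1.58 ± 0.25 (SE, adjusted p = 0.0552), which did not pass. *QCR8* did not pass in either comparison with early log, and its early log replicate 3 and mid log replicate 1 were the lowest of the 9 libraries.

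*QCR9* (YGR183C) and *QCR10* (YHR001W-A) encode the 2 small subunits that rose the most in this complex, and both genes have an intron. *QCR9* had 49.8, 43.8 and 32.5 CPM in early log, 35.9, 64.1 and 65.5 CPM in mid log and 125, 109 and 118 CPM in late log. *QCR10* had 37.8, 40.0 and 41.0 CPM in early log, 37.0, 70.8 and 73.7 CPM in mid log and 139.7, 137 and 141 CPM in late log. Neither gene's late log range overlapped any earlier library. *QCR10* was 3.39-fold higher in late than in early log, with a log2 fold change of 1.76 ± 0.10 (SE, adjusted p = 3.37e-05) by edgeR. *QCR9* had 1.43 ± 0.17 (SE, adjusted p = 0.000272). In mid over early log the values were 0.63 ± 0.31 (SE, adjusted p = 0.132) for *QCR10* and 0.41 ± 0.32 (SE, adjusted p = 0.316) for *QCR9*, and neither passed. The late over early log values were 0.41 for *QCR9* and 0.83 for *QCR10* with the trend in gene length removed.

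Assembly factors and carriers around complex III follow. Of 11 genes for its assembly or for translation of cytochrome b, 7 rose and 3 fell in late log relative to early log, with a median log2 fold change of 0.77, where 33.0% of all genes tested rose and 39.2% fell. Under scaling by library totals 3 rose and 4 fell, and with the sequencing run as a term 4 rose and 0 fell. The 3 that fell were *CBP1*, *CBP2* and *CBS1*, which act on the cytochrome b transcript or its translation, and their means were 6.10, 2.14 and 3.09 CPM in late log, against 12.4, 15.7 and 7.42 CPM in early log. *CYC1*, which encodes the main cytochrome c, averaged 112 ± 24 CPM in early log, 131 ± 8.7 CPM in mid log and 339 ± 39 CPM in late log (SD, n = 3 each), and its late over early log change was 1.54 ± 0.18 (SE, adjusted p = 0.000248 by edgeR). *CYC7*, the isoform known for expression under low oxygen, averaged 6.77 CPM in early log, 6.22 CPM in mid log and 6.78 CPM in late log and did not pass.

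All 7 complex IV genes rose in late log relative to early log, with log2 fold changes between 0.66 and 1.41, although *COX6*, *COX7*, *COX8* and *COX12* did not pass under scaling by library totals and *COX7*, *COX8* and *COX12* had values just below 0 with the trend in gene length removed. None of the 7 passed in mid over early log, where the values ran between −0.54 and 0.64. *COX4* (YGL187C) encodes a zinc-binding subunit on the matrix side and *COX6* (YHR051W) a further matrix subunit. *COX4* had 123, 124 and 109 CPM in early log, 123, 202 and 224 CPM in mid log and 306, 265 and 291 CPM in late log. *COX6* had 99.3, 102 and 95.4 CPM in early log, 82.8, 139 and 143 CPM in mid log and 176, 159.8 and 151 CPM in late log. The late log range of each was above all 6 other libraries. The late over early log change was 1.22 ± 0.11 (SE, adjusted p = 9.42e-05) for *COX4* and 0.66 ± 0.10 (SE, adjusted p = 0.000995) for *COX6* by edgeR. The mid over early log values, 0.64 ± 0.27 (SE, adjusted p = 0.0914) for *COX4* and 0.32 ± 0.26 (SE, adjusted p = 0.340) for *COX6*, did not pass.

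*COX9* (YDL067C) and *COX13* (YGL191W) encode membrane-anchored subunits, and *COX13* is known to be dispensable for activity. *COX9* had 54.0, 48.3 and 38.5 CPM in early log, 37.8, 77.9 and 78.8 CPM in mid log and 129.6, 127 and 131 CPM in late log. *COX13* had 116, 111 and 95.7 CPM in early log, 92.6, 129 and 152 CPM in mid log and 253, 214 and 242 CPM in late log. In late log the 3 replicates of *COX9* had a mean of 129 CPM and an SD of 2.20 CPM, and no late log library of either gene overlapped an earlier one. Relative to early log *COX9* rose by 1.41 ± 0.14 (SE, adjusted p = 0.000143) and *COX13* by 1.08 ± 0.12 (SE, adjusted p = 0.000208) on the log2 scale by edgeR. These values were 0.32 for *COX9* and 0.61 for *COX13* with the trend in gene length removed. The mid over early log values were 0.48 ± 0.34 (SE, adjusted p = 0.265) for *COX9* and 0.22 ± 0.25 (SE, adjusted p = 0.469) for *COX13*, and the mid and early log ranges of both overlapped.

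*COX7* (YMR256C), *COX8* (YLR395C) and *COX12* (YLR038C) encode the other 3 small subunits. *COX7* had 56.4, 46.0 and 30.5 CPM in early log, 22.1, 36.4 and 32.3 CPM in mid log and 104, 86.4 and 87.6 CPM in late log. *COX8* had 91.9, 93.2 and 80.4 CPM in early log, 61.7, 85.4 and 91.9 CPM in mid log and 176, 159.5 and 159 CPM in late log. *COX12* had 66.2, 62.4 and 41.4 CPM in early log, 29.6, 59.1 and 59.4 CPM in mid log and 113, 101 and 107 CPM in late log. The mid and early log ranges of each gene overlapped, and every late log library was above both. *COX7* had the smallest p of complex IV in late over mid log, with a log2 fold change of 1.47 ± 0.26 (SE, adjusted p = 0.0597) by edgeR, and did not pass. The rise of these 3 genes in late log was lost when the trend with gene length was removed, where the log2 fold changes were −0.06 for *COX7*, −0.07 for *COX8* and −0.00049 for *COX12*, while with the sequencing run as a term they still rose, as did 6 of the 7 genes of complex IV, *COX6* being the exception.

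Subunit 5 of complex IV is made from either of a pair of genes that replace each other, *COX5A* in air and *COX5B* when oxygen is low. *COX5A* averaged 150 ± 7.8 CPM in early log, 274 ± 88 CPM in mid log and 318 ± 19 CPM in late log (SD, n = 3 each). *COX5B* averaged 17.5 ± 7.4 CPM in early log, 28.3 ± 1.1 CPM in mid log and 69.8 ± 1.4 CPM in late log (SD, n = 3 each). Both rose in late log, with log2 fold changes over early log of 1.03 ± 0.10 for *COX5A* (SE, adjusted p = 0.000141 by edgeR) and 1.94 ± 0.28 for *COX5B* (SE, adjusted p = 0.000691 by edgeR). With the sequencing run as a term *COX5A* did not pass (adjusted p = 0.0535 by edgeR). *COX5B* also rose in late over mid log, by 1.17 ± 0.16 (SE, adjusted p = 0.0397 by edgeR), but it did not pass with the trend in gene length removed (0.82, adjusted p = 0.141 by edgeR) or with the GC trend removed (1.17, adjusted p = 0.0577 by edgeR). Of 29 genes for assembly of complex IV or for translation of its mitochondrial subunits, 21 rose and 3 fell (*SHY1*, *PET309* and *PET494*) in late log relative to early log, with a median log2 fold change of 1.04. Under scaling by library totals 12 of the 29 rose and 5 fell, and with the sequencing run as a term 11 rose and 1 fell.

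The ATP synthase genes did not all change alike. In late log 9 of its 13 genes rose and 1 fell relative to early log, where 33.0% of all genes tested rose and 39.2% fell. The 1 that fell, *ATP3*, did not pass in some alternatives, which are given below. In mid log 2 rose and 2 fell, shares below the 20.7% and 24.2% of all genes tested. The log2 fold changes ran between −0.66 and 2.16 in late log and between −1.82 and 1.50 in mid log. *ATP1* (YBL099W) and *ATP2* (YJR121W) encode the alpha and beta subunits of the catalytic head, present in several copies each. *ATP1* had 470.1, 474 and 472 CPM in early log, 877, 1552 and 1536 CPM in mid log and 933, 855 and 904 CPM in late log. *ATP2* had 1029, 1096 and 831 CPM in early log, 1423, 2493 and 2545 CPM in mid log and 1657, 1645 and 1497 CPM in late log. For both genes mid log replicates 2 and 3 were the highest of the 9 libraries, mid log replicate 1 was within the late log range for *ATP1* and just below it for *ATP2*, and all late and all mid log libraries were above all early log ones.

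*ATP1* and *ATP2* rose in both comparisons with early log with TMM scaling, whereas under scaling by library totals *ATP1* rose in mid log alone. They, and *ATP3*, *ATP7* and *ATP14*, are given with full statistics because of their values, which were seen first. In mid over early log *ATP1* rose by 1.50 ± 0.28 (SE, adjusted p = 0.0135) and *ATP2* by 1.14 ± 0.30 (SE, adjusted p = 0.0229) on the log2 scale by edgeR. In late over early log the values were 0.87 ± 0.10 (SE, adjusted p = 0.000272) for *ATP1* and 0.65 ± 0.14 (SE, adjusted p = 0.00482) for *ATP2*. Under library totals the late over early log values were 0.28 for *ATP1* (adjusted p = 0.0511 by edgeR) and 0.056 for *ATP2* (adjusted p = 0.712 by edgeR), and *ATP2* had 0.28 in mid over early log (adjusted p = 0.203 by edgeR). With the sequencing run as a term neither passed in late log. Late over mid log gave −0.70 ± 0.28 (SE, adjusted p = 0.229) for *ATP1* and −0.57 ± 0.29 (SE, adjusted p = 0.317) for *ATP2*, and neither passed unless mid log replicate 1 was left out. Together *ATP1* and *ATP2* made up 54.1% ± 1.1 of the summed CPM of the 13 genes in early log, 70.7% ± 3.0 in mid log and 50.5% ± 1.2 in late log (SD, n = 3 each). The other 11 genes summed to 1239 ± 140 CPM in early log, 1408 ± 252 CPM in mid log and 2451 ± 112 CPM in late log (SD, n = 3 each).

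*ATP3* (YBR039W), *ATP16* (YDL004W) and *ATP15* (YPL271W) encode the gamma, delta and epsilon subunits, which form the rotating central stalk. *ATP3* had 160.4, 159 and 158 CPM in early log, 148, 54.3 and 40.0 CPM in mid log and 105, 86.6 and 122 CPM in late log. *ATP16* had 169, 166 and 144 CPM in early log, 173, 311 and 322 CPM in mid log and 368, 359 and 394 CPM in late log. *ATP15* had 102, 99.7 and 89.2 CPM in early log, 67.8, 135 and 139.7 CPM in mid log and 455, 473 and 419 CPM in late log. These neighbours in the protein complex had different patterns, since *ATP3* was lower in late log than in any early log library, *ATP16* was higher in every later library than in early log, and the mid log range of *ATP15* overlapped early log while its late log range was above all other libraries. *ATP15* had the largest rise of the 34 genes with TMM scaling, 4.47-fold in late over early log, with a log2 fold change of 2.16 ± 0.11 (SE, adjusted p = 3.28e-05) by edgeR. With the trend in gene length removed its value was 1.09, below the 1.66 of *SDH1*, and with the sequencing run as a term it was 2.33, below the 2.44 of *ATP18*. *ATP3* fell by 0.66 on the log2 scale in late over early log (SE 0.14, adjusted p = 0.00359 by edgeR), and the fall did not pass with the GC trend removed, in a fit of all 9 libraries or with the sequencing run added, and the value was −0.09 with the GC trend removed. For mid over early log *ATP15* had 0.25 ± 0.31 (SE, adjusted p = 0.515) and did not pass, and in late over mid log its value was 1.83 ± 0.33 (SE, adjusted p = 0.0640), the smallest p of complex V, and did not pass.

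*ATP4* (YPL078C), *ATP5* (YDR298C), *ATP7* (YKL016C) and *ATP14* (YLR295C) encode the peripheral stalk that holds the head still. *ATP4* had 156, 145 and 118 CPM in early log, 151, 128 and 138 CPM in mid log and 168, 126 and 157 CPM in late log. *ATP5* had 208, 218 and 146 CPM in early log, 215, 371 and 400.4 CPM in mid log and 323, 291 and 307 CPM in late log. *ATP4* had the smallest fold changes of the 13 genes in both comparisons with early log, with overlapping ranges in the 3 subphases and log2 values of 0.01 ± 0.21 (SE, adjusted p = 0.977) for mid over early and 0.05 ± 0.15 (SE, adjusted p = 0.779) for late over early log by edgeR. Under scaling by library totals *ATP4* fell in both, by 0.77 in mid log and 0.54 in late log on the log2 scale. *ATP5*, the subunit that confers oligomycin sensitivity, was higher in every late log library than in any early log library and passed as higher. It did not pass under scaling by library totals (0.045 on the log2 scale, adjusted p = 0.798 by edgeR).

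*ATP7* had 159, 153 and 120.1 CPM in early log, 79.1, 67.3 and 65.0 CPM in mid log and 137, 135 and 133 CPM in late log. *ATP14* had 67.1, 57.7 and 63.9 CPM in early log, 35.3, 10.6 and 7.16 CPM in mid log and 48.0, 33.6 and 57.6 CPM in late log. *ATP7* and *ATP14* both had their lowest mean in mid log, where every library of each gene was below every early log library. The late log libraries of *ATP7* were all above the mid log ones, whereas the late and mid log ranges of *ATP14* overlapped. *ATP7* fell by 1.02 (SE 0.22, adjusted p = 0.0145 by edgeR) and *ATP14* by 1.82 (SE 0.58, adjusted p = 0.0393 by edgeR) on the log2 scale in mid over early log. The fall of *ATP7* did not pass with the GC trend removed. In late log *ATP7* had −0.15 ± 0.13 (SE, adjusted p = 0.324) and *ATP14* −0.50 ± 0.19 (SE, adjusted p = 0.0504) relative to early log, and neither passed, although the late log values of *ATP14* all lay under its early log range. In several alternatives *ATP14* passed as lower in late log. These were library totals (−1.09, adjusted p = 0.00187 by edgeR) and the trend in gene length removed (−1.01, adjusted p = 0.00184 by edgeR). It also passed without a filter, with a minimum of 10 counts, with a replicate block, and without early log replicate 3 or late log replicate 3.

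*ATP17* (YDR377W) and *ATP18* (YML081C-A) encode small membrane subunits, and *ATP20* (YPR020W) and *TIM11* (YDR322C-A) the subunits that join ATP synthase into dimers. *ATP17* had 94.6, 93.2 and 69.3 CPM in early log, 77.1, 155 and 175 CPM in mid log and 292, 257 and 266 CPM in late log. *ATP18* had 77.5, 77.7 and 49.7 CPM in early log, 72.5, 132 and 144 CPM in mid log and 274, 271 and 263 CPM in late log. In both genes the late log range was above the 6 other libraries, and mid log replicates 2 and 3 were above early log. The late over early log change was 1.61 ± 0.15 (SE, adjusted p = 9.95e-05) for *ATP17* and 1.93 ± 0.18 (SE, adjusted p = 0.000120) for *ATP18* by edgeR. In mid over early log the values were 0.68 ± 0.34 (SE, adjusted p = 0.136) for *ATP17* and 0.78 ± 0.33 (SE, adjusted p = 0.0910) for *ATP18*, and neither passed.

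*ATP20* had 70.1, 61.7 and 55.7 CPM in early log, 46.3, 65.4 and 69.6 CPM in mid log and 157, 106 and 128 CPM in late log. *TIM11* had 75.3, 67.6 and 64.4 CPM in early log, 54.4, 88.0 and 86.4 CPM in mid log and 232, 198 and 214 CPM in late log. Both dimer genes had mid log ranges that overlapped early log and late log ranges above all other libraries, and both rose in late over early log. Under scaling by library totals *TIM11* rose and *ATP20* did not pass (0.41 on the log2 scale, adjusted p = 0.0559 by edgeR). With the sequencing run as a term the 6 genes of complex V that still rose were *ATP15*, *ATP16*, *ATP17*, *ATP18*, *ATP20* and *TIM11*, which encode 2 subunits of the central stalk and 4 membrane subunits.

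**Figure D3:**
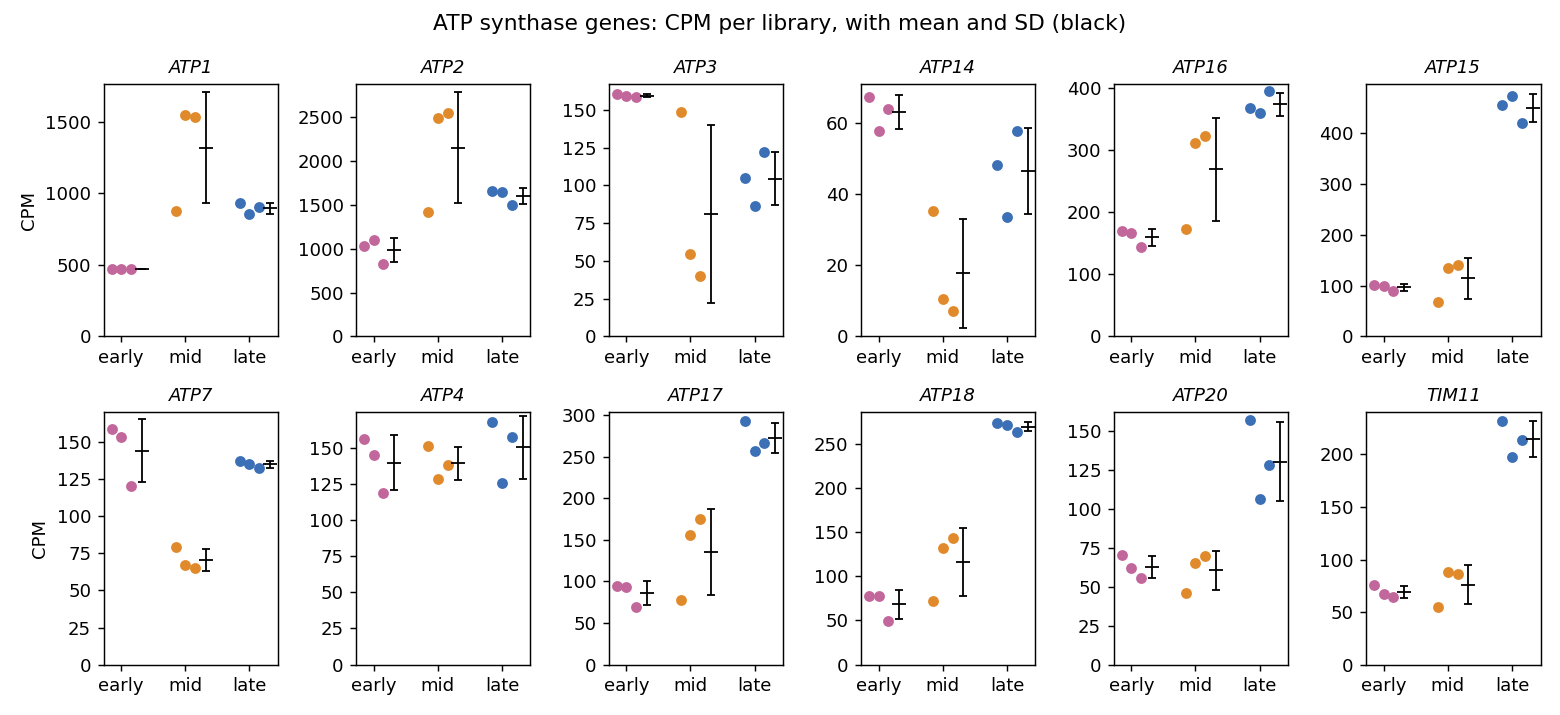
CPM of 12 ATP synthase genes in each library (points, early, mid and late log along the horizontal axis, each panel with its own vertical axis starting at 0), with the mean and SD of the 3 libraries in black. ATP1 and ATP2 are highest in mid log replicates 2 and 3, ATP14 is lowest there, and ATP15 and ATP18 are highest in late log, at 419 to 473 CPM and 263 to 274 CPM (scaled by TMM; under scaling by library totals ATP15 and ATP18 also rose in late over early log).

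Genes around the ATP synthase are given for comparison. Of 12 genes for its assembly or for translation of its mitochondrial subunits, 4 rose (*ATP12*, *ATP23*, *INA17* and *AEP2*) and 5 fell (*ATP10*, *ATP25*, *FMC1*, *INA22* and *AEP1*) in late log relative to early log, with a median log2 fold change of −0.0011, where 33.0% of all genes tested rose and 39.2% fell. Under scaling by library totals 2 rose and 6 fell, with the trend in gene length or in GC content removed 7 rose and 4 fell, and with the sequencing run as a term 1 rose and 1 fell. *INH1*, the inhibitor that stops the enzyme from hydrolysing ATP, averaged 38.4 ± 5.9 CPM in early log, 73.7 ± 22 CPM in mid log and 197 ± 8.9 CPM in late log (SD, n = 3 each), a late over early log change of 2.31 ± 0.14 (SE, adjusted p = 3.98e-05 by edgeR), and was named after its values were seen. Of 7 carriers of ADP, ATP and phosphate, all 7 rose in mid log and 6 in late log relative to early log, with median log2 fold changes of 1.82 and 1.22, and under scaling by library totals 6 rose in mid log and 4 in late log. Their late over mid log values were all negative, between −1.29 and −0.01, the same direction as *ATP1* and *ATP2*, and none passed.

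Levels per kilobase of coding sequence show how far apart the highest and the lowest subunit gene of a complex lay in each subphase. In complex IV the highest mean level per kilobase was 1.69 times the lowest in early log, 2.37 times in mid log and 1.98 times in late log. In complex V the ratio was 3.82 in early log (*ATP2* over *ATP14*), 29.7 in mid log (*ATP2* over *ATP14*) and 21.3 in late log (*ATP15* over *ATP3*). The late log ratio is thus of another pair, with coding lengths of 189 bases for *ATP15* and 936 for *ATP3*. The late over early log change of *ATP15* was 2.16 on the log2 scale, and 1.09 with the trend in gene length removed. The mid log ratio of *ATP2* over *ATP14* was 9.83 in mid log replicate 1 and 69.2 in the means of replicates 2 and 3. In complex II the ratio was 4.31 in early log, 3.52 in mid log and 5.92 in late log. In complex III it was 4.64 in early log, 5.33 in mid log and 7.43 in late log. These are ratios of reads per length and not of molecules.

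Fold changes in late log were larger in shorter genes. The coding lengths of the 34 genes ran between 180 and 1923 bases with a median of 457.5 bases, against a median of 1236 bases in the other genes tested. The 10 genes of at most 300 bases had a median log2 fold change of 1.42 in late over early log, and the 8 of at least 900 bases had 0.84. Among the 221 other tested genes of at most 300 bases the median was 1.04, and among the 3743 other genes of at least 900 bases it was −0.45. Across the 34 genes Pearson's r of the late over early log change with the log2 of coding length was −0.38, and for late over mid log it was −0.75 (Spearman's rho −0.47 and −0.75), as descriptions across genes that share libraries. Across all genes these r values were −0.34 and −0.34. With the trend in gene length removed from each library, 23 of the 34 genes rose and 4 fell in late over early log. Of all 5954 genes tested, 2551 rose and 1726 fell with it removed. The median of the 34 genes then lay 0.35 above that of all genes rather than 0.95 above.

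**Figure D4:**
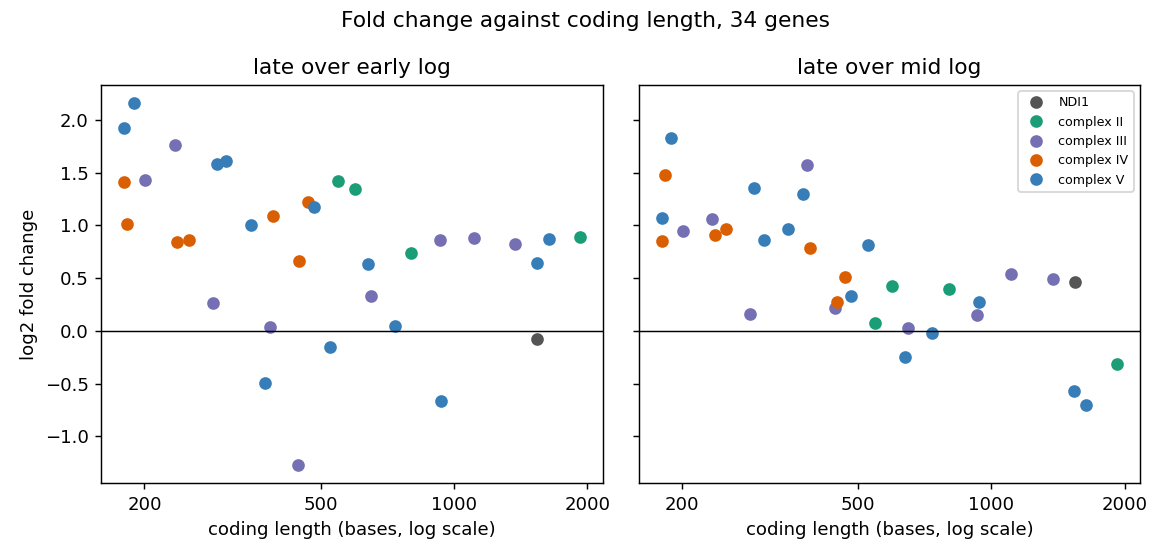
Log2 fold change of late over early log, left, and late over mid log, right, against coding length in bases on a log axis, for the 34 genes coloured by complex. The 10 genes of at most 300 bases have a median of 1.42 on the left and 1.01 on the right, and the 8 genes of at least 900 bases have medians of 0.84 and 0.21; with the trend in gene length removed, COX7, COX8 and COX12 lie just below 0 on the left.

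The genes for known activators of the respiratory chain did not rise with TMM scaling. Of the 5 HAP genes, *HAP1*, *HAP2* and *HAP4* fell and none rose by edgeR's test in late log relative to early log, where 39.2% of all genes tested fell. With the sequencing run as a term none of the 5 passed, with adjusted p of 0.303 for *HAP1* and 0.0815 for *HAP2* by edgeR. *HAP1* had a log2 fold change of 0.17 (adjusted p = 0.317 by edgeR) with the trend in gene length removed, and *HAP3* rose by 0.50 (adjusted p = 0.0301 by edgeR) with DESeq2's size factors. *HAP4*, the regulatory subunit of the CCAAT-binding complex, had 82.1, 69.0 and 78.7 CPM in early log, 52.5, 19.5 and 14.8 CPM in mid log and 21.0, 24.9 and 22.0 CPM in late log. No late log value reached the early log range, and mid log replicate 1 lay between the 2 groups. The late over early log change was −1.81 ± 0.13 (SE, adjusted p = 5.18e-05 by edgeR) and the mid over early log change −1.39 ± 0.48 (SE, adjusted p = 0.0484 by edgeR). The mid log call lost the threshold in several alternatives, with adjusted p between 1.55e-19 and 0.141 over 16 alternatives, and with the sequencing run as a term the late over early log change was −1.80 (adjusted p = 0.0541 by edgeR).

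*HAP2*, a DNA-binding subunit of that complex, averaged 11.1 ± 2.3 CPM in early log, 3.01 ± 4.0 CPM in mid log and 1.93 ± 0.38 CPM in late log (SD, n = 3 each), a late over early log change of −2.58 ± 0.25 (SE, adjusted p = 0.000120 by edgeR). *HAP1*, the heme-responsive activator, averaged 71.0 ± 4.2 CPM in early log, 51.5 ± 41 CPM in mid log and 40.7 ± 2.8 CPM in late log (SD, n = 3 each), a change of −0.86 ± 0.11 (SE, adjusted p = 0.000381 by edgeR), which turned to 0.17 when the trend with gene length was removed. *HAP3* and *HAP5*, the other DNA-binding subunits, had 0.42 ± 0.17 (SE, adjusted p = 0.0567 by edgeR) and −0.40 ± 0.21 (SE, adjusted p = 0.124 by edgeR). These are transcript levels, and protein levels or activity were not measured.

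Other mitochondrial groups are given for scale. Of 11 citric acid cycle genes, 8 rose and none fell by edgeR's test in late log relative to early log, with a median log2 fold change of 0.57, while under scaling by library totals none rose and 2 fell, and with the sequencing run as a term none passed. Of 75 mitochondrial ribosomal protein genes tested, 37 rose and 19 fell, with a median of 0.52. The share that rose was 25 of 34 in the respiratory chain genes, and no test was made between the lists. The libraries were selected for poly(A) tails. Of 7 mitochondrially encoded subunits 3 had enough reads to be tested, and *COX1* and *ATP6*, with means of 9.53 and 0.932 CPM in late log, against 5.08 and 0.286 CPM in early log, rose, although 1 of the 3 rose under library totals and none with the sequencing run as a term.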

How the data were processed

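The data are deposited mRNA-seq gene counts of 9 libraries, 3 biological replicates per subphase. The authors aligned reads to the R64 genome with STAR and counted them per gene with HTSeq (version 0.12.3 in the submitters' processing notes), and deposited raw counts. The strand setting is not given in the sources used here. Of the 7127 genes, 319 had no counts. The 5 summary lines without a gene name were left out. They held 6.65% to 10.7% of reads outside genes, 0.281% to 0.511% on overlapping genes and 7.46% to 11.2% with several matches.

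The 2 subphases of each comparison were fitted without the other libraries in R 4.3.3 with edgeR 4.0.16 (filterByExpr, TMM, quasi-likelihood test, Benjamini-Hochberg at 0.05 over all genes tested). Log2 fold changes are later over earlier subphase, and standard errors were derived from the F statistic. P-values rest on the spread between 3 libraries per subphase, each from its own culture, with counting error included. In early log these libraries also came from runs 1 and 3. The steps were tested on simulated data. DESeq2 1.42.0, library totals, other filters, length and GC trends (loess, limma 3.58.1), the sequencing run and left-out libraries were alternatives. Copies were searched with blastn 2.17.0, and Python 3.11.15 was used for summaries.

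Genes given a fold change were NDI1 and, in each of complexes II to V, the 3 with the largest and the 1 with the smallest absolute late over early log change, and, for late over mid log, the smallest p per complex. Other genes are given by level and counts. The 34 genes, this rule and the gene lists were chosen with earlier results of these data known.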

Additional observations from a re-analysis of the deposited data

How the results depend on the processing

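In mid over early log the count of the 34 genes past the threshold, 8, was 14 under library totals, 13 by DESeq2's test, 14 in a fit of all 9 libraries, 13 with the trend in gene length removed, 15 with the GC trend removed and 28 without mid log replicate 1 and early log replicate 3, and ran between 0 and 25 with a library left out in turn. In late over early log the 27 became 26 in a fit of all 9 libraries and 16 when that fit also held the sequencing run, and leaving out a library gave 27 to 29. Among all 6014 genes tested, 1708 rose and 1818 fell in the fit of all 9 libraries. With the sequencing run added, 724 rose and 728 fell. In late over mid log the 0 became 16 under library totals, 8 by DESeq2's test and 10 in a fit of all 9 libraries, with 0 to 24 when a library was left out. A replicate block gave 9, 28 and 0 genes in these comparisons. The counts of all genes moved as well. In mid over early log 1233 of 5951 genes rose and 1441 fell in the main fit. With the GC trend removed 1764 rose and 1025 fell, and by DESeq2's test 1614 rose and 1574 fell. Without mid log replicate 1 and early log replicate 3, 2499 of 5981 genes rose and 2861 fell. In late over mid log 365 of 5865 genes rose and 88 fell under library totals. Whether replicate numbers pair the cultures was not settled. Correlations of same-numbered deviations ran between −0.36 and 0.38. Replicate 1 correlated best with its own number in every comparison and replicate 2 in late over mid log alone. Replicate 3 did so in mid over early and late over early log. With 3 libraries per group these values cannot decide whether the cultures were paired.

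Fold changes were followed over all alternatives only for the genes chosen by the rule above or for their values. Of these log2 fold changes, 650 kept direction and side of the threshold, 63 gained it, 53 lost it and 35 turned sign. The other genes are not in these counts. Among the chosen genes, in mid over early log library totals turned SDH2 to −0.55, SDH3 to −0.033, QCR9 to −0.45, QCR10 to −0.25, COX4 to −0.22, COX6 to −0.54, COX9 to −0.39, COX13 to −0.62, ATP4 to −0.77, ATP15 to −0.62, ATP17 to −0.20 and ATP18 to −0.083. Over all 34 genes, 4 had a positive value with library totals, against 24 in the main fit, so genes outside the choice turned as well. This scaling moved the median of all genes to −0.89. The GC trend removed gave COX9 −0.0066 and the length trend removed ATP15 −0.11. ATP4 was −0.039 without a filter, −0.071 with a minimum of 10 counts, −0.0045 with all 9 libraries, −0.12 without both libraries that stood apart and −0.10 to 0.089 with a library left out. In late over early log NDI1 was 0.0035 with DESeq2's size factors, 0.0035 by its test, 0.49 with the length trend removed and −0.18 to 0.099 with a library left out. QCR7 was −0.55 under library totals, −0.0078 without a filter, −0.45 with the length trend removed and −0.045 to 0.18 with a library left out. ATP4 was −0.54 under library totals and −0.055 to 0.16 with a library left out. ATP7 was 0.31 with the GC trend removed and 0.17 with the sequencing run as a term. The cause of these changes was not tested. Every gene had at least 146 reads in each library, and counting error and the spread between cultures were not separated.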
